A study of Mus musculus with 73 samples.

Results

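The extraembryonic ectoderm (ExE), the trophoblast tissue that lies above the epiblast in the implanted mouse embryo, was compared with the epiblast in embryos disrupted for both G9a and Glp. The members were the libraries that the labels call G9a-Glp, and they numbered 14 of the 72 RNA libraries in the table. There were 8 from ExE and 6 from epiblast, from 9 embryos, of which 5 gave both tissues. The lineage difference in these libraries was set against that of 7 ExE and 7 epiblast libraries from 7 wild-type embryos of the same cross, called Bdf1xCast. The question was which differences between the lineages persist, shrink, grow or appear when G9a and Glp are targeted.

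All 28 libraries came from embryos at E6.5 with a BDF1 mother and a CAST father, made by injecting CAST sperm into BDF1 oocytes. The G9a-Glp zygotes also received Cas9 mRNA and several guide RNAs against exons of each gene. Blastocysts were carried by pseudopregnant CD-1 females. Zygotic injection can leave an embryo mosaic, and a frameshifted transcript can still be read, so a residual level of a targeted gene does not tell how much protein remained. The wild-type groups each held 3 female and 4 male embryos, the G9a-Glp ExE 5 and 3, and the G9a-Glp epiblast 3 of each sex, and only autosomal genes were tested. The epiblast and ExE were cut apart by hand and the visceral endoderm was stripped off, and each library came from a small number of cells.

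G9a (the gene Ehmt2) and Glp (Ehmt1) form a heterodimer that places mono- and dimethyl marks on lysine 9 of histone H3, a modification of repressed euchromatin. The complex also recruits DNA methyltransferases, and mouse embryos without it die at midgestation. In the ExE, a small set of genes is expressed from the paternal allele without DNA methylation inherited from the oocyte, which is called noncanonical imprinting. The epiblast, which gives rise to the embryo proper, is highly methylated at this stage, whereas the ExE has lower methylation and its own network of transcription factors led by genes such as Elf5, Eomes, Cdx2 and Esrrb.

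Reads were counted only where they cover a polymorphism between the parental strains, so levels can be compared between libraries for a gene but not between genes. Levels are given in CPM, the reads of a gene scaled to 1000000 reads of its library. The lineage difference is the log2 ratio of ExE over epiblast, fitted with edgeR's quasi-likelihood test over 10532 autosomal genes, and every adjusted p comes from that test with Benjamini-Hochberg adjustment and a threshold of 0.05. The change is the G9a-Glp lineage difference minus the wild-type one, tested in the same fit. For each gene named below, the lowest, median and highest CPM over the libraries of a group are given in that order.

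Total reads were between 1311863 and 3028267 in wild-type epiblast, 2685835 and 3053690 in wild-type ExE, 1637260 and 2860524 in G9a-Glp epiblast, and 1829541 and 3637331 in G9a-Glp ExE. Wild-type epiblast embryo 8 had the fewest reads and the most detected autosomal genes (19951) and G9a-Glp ExE embryo 7, at 17854, the most of its group. The 7 epiblast markers together summed to 148 to 317 CPM in wild-type ExE and 363 to 664 CPM in G9a-Glp ExE, and to 731 to 2073 CPM and 1443 to 1812 CPM in epiblast. Most of the sum in G9a-Glp ExE was Utf1, at 323 to 642 CPM. Utf1 was higher in ExE than epiblast in wild type and rose in both tissues of G9a-Glp, so this sum does not measure epiblast cells in ExE. Of the 7 markers, Nanog, Fgf5, Otx2 and Tdgf1 were picked for being low in wild-type ExE, and Pou3f1, Pou5f1 and Utf1 were left out. The picked markers summed to 0.987 to 16.3 CPM in wild-type ExE, low by choice, and to 2.06 to 77.8 CPM in G9a-Glp ExE. By this sum, embryos 8, 2 and 9 of G9a-Glp ExE were highest at 77.8, 30.6 and 25.5 CPM. By all 7 markers, embryos 4, 7 and 8 were highest at 664, 597 and 584 CPM. In epiblast the picked markers summed to 552 to 1999 CPM in wild type and 606 to 1182 CPM in G9a-Glp. The ExE marker Cdx2 was at 0 in all wild-type epiblast libraries, and Pou5f1, an epiblast factor with few informative reads, was at 0 in all wild-type ExE libraries. The 7 ExE markers summed to 27.1 to 229 CPM in wild-type epiblast and 27.4 to 129 CPM in G9a-Glp epiblast. The 10 visceral endoderm markers summed to 12.8 to 28.6 CPM in wild-type ExE and 20.3 to 139 CPM in G9a-Glp ExE. Without Afp and Amn, the other 8 summed to 2.94 to 137 CPM in wild-type epiblast, with embryo 8 at 137, and to 3.39 to 221 CPM in G9a-Glp epiblast, with embryos 5, 2 and 3 at 221, 112 and 81.2. In ExE these 8 summed to between 0.607 and 11.4 CPM over both genotypes. Of 6 blood and decidua markers in the table, Hbb-bt and Prl8a2 were at 0 in every library, and the sum reached at most 31.6 CPM, in G9a-Glp epiblast. The part of such cells in the results was not tested, and counts without these libraries are given below. In tissue pieces of this kind, fewer cells of a type and less RNA per cell cannot be told apart.

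The targeted genes were lowered in ExE and not called in epiblast. Ehmt2 was at 4.33, 15.4 and 23.3 CPM in wild-type ExE and at 1.65, 3.3 and 7.15 CPM in G9a-Glp ExE, and 6 of the 8 G9a-Glp libraries lay below the lowest wild-type one. The fitted fold was -2.04 log2 (edgeR adjusted p = 0.0005). In epiblast, where Ehmt2 had few reads, wild type was at 0.396, 2.52 and 6.27 CPM and G9a-Glp at 1.13, 2.98 and 5.5 CPM, and the ranges overlapped throughout. Ehmt1 was at 15.3, 34.6 and 40.6 CPM in wild-type ExE and 4.4, 12.5 and 26.1 CPM in G9a-Glp ExE, with 5 of 8 below the lowest wild-type library (-1.05 log2, edgeR adjusted p = 0.043). In epiblast it was at 14.5, 27.5 and 39.8 CPM in wild type and 4.14, 18 and 50.5 CPM in G9a-Glp, and 2 of 6 libraries lay below the wild-type range (-0.65 log2, edgeR adjusted p = 0.19). The other 4 epiblast libraries, labelled G9a-Glp embryos 7, 2, 4 and 5, had Ehmt1 at 50.5, 29.3, 18.96 and 17.1 CPM, within or above the wild-type range. In ExE, embryos 2, 7 and 8 were within that range for Ehmt1 and embryos 8 and 10 for Ehmt2, so that embryo 8 (21.3 CPM for Ehmt1 and 6.49 CPM for Ehmt2) was below it for neither gene. Counts are also printed without epiblast embryos 7 and 2, whose Ehmt1 lay above the wild-type median, and ExE embryo 8. Epiblast embryos 4 and 5 were kept in those counts. As a lineage difference, Ehmt2 was 2.38 ± 0.43 (SE) in wild type (edgeR adjusted p = 1.8e-05) and 0.46 ± 0.46 in G9a-Glp (0.41), with a change of -1.92 that did not pass (0.058).

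Most of the lineage contrast was present in G9a-Glp embryos. In G9a-Glp, 5440 of 10532 genes differed between ExE and epiblast (51.7%), 2529 higher in ExE (24.0%) and 2911 lower (27.6%). In wild type 6265 differed (59.5%), 3091 higher in ExE (29.3%) and 3174 lower (30.1%). Of the 6265, 5745 had the same sign in G9a-Glp (91.7%). The median ratio of the G9a-Glp over the wild-type log2 difference was 0.741 across genes called in wild type, 0.997 across genes called in G9a-Glp, and 0.925 across the 4259 genes called in both, so its distance from 1 depended on which genotype chose the genes. The change itself was called for 719 genes (6.83%), 316 positive (3.00%) and 403 negative (3.83%). Gene classes were formed from these calls. Differences called with the same sign in both genotypes and with no called change are said to persist, a class of 4014 genes (38.1%). Differences of the wild type that were called smaller, absent or turned are said to have shrunk, 515 genes (4.89%), of which 331 were no longer called in G9a-Glp, 128 were smaller and 56 had the opposite sign. Wild-type differences that were called larger are said to have grown, 61 genes (0.579%). Differences that were called in G9a-Glp but not in wild type, and whose change was called, are said to have appeared, 143 genes (1.36%). A further 2713 genes were called in 1 genotype with no called change (25.8%), and a change that was not called does not show that the genotypes were alike.

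**Figure D1:**
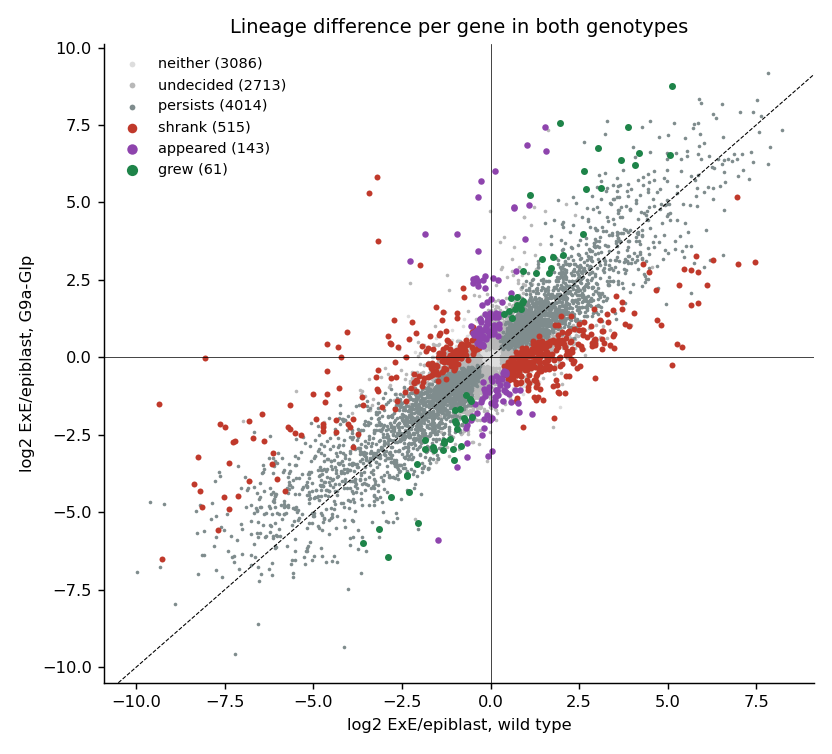
Lineage difference of each tested autosomal gene in wild type (x axis) and G9a-Glp (y axis), as fitted log2 ExE over epiblast. Points are genes, coloured by class; most lie near the diagonal, and the 515 genes that shrank lie towards or across the horizontal zero line. Fitted values of genes with no reads in a group depend on the prior count and are no bound.

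Genes that mark the ExE as a tissue kept their ExE bias. Of 20 tested members of a list of ExE and trophoblast stem cell genes, 18 were higher in ExE in G9a-Glp and 0 lower, and all 18 persisted, with a median lineage difference of 5.73 in G9a-Glp and 5.73 in wild type. Over all 10532 genes, 24.0% were higher in G9a-Glp ExE and 38.1% persisted, and the medians were -0.03 and -0.02. With groups of 0 reads set at a floor of 3 reads over the group, the medians of the list were 5.39 in G9a-Glp and 5.55 in wild type. Elf5, a transcription factor of trophoblast stem cells, was at 200, 298 and 478 CPM in G9a-Glp ExE and 0, 0.204 and 1.75 CPM in G9a-Glp epiblast, with no overlap. Over all tested genes, the ExE and epiblast libraries did not overlap for 25.9% in G9a-Glp. In wild type Elf5 was at 171, 265 and 363 CPM in ExE and 0, 1.19 and 3.81 CPM in epiblast. The lineage difference of Elf5 was 9.18 ± 0.43 (SE) in G9a-Glp and 7.83 ± 0.37 in wild type, and the change was not called (edgeR adjusted p = 0.26). The nuclear receptor Esrrb was at 10.7, 33.1 and 63.1 CPM in G9a-Glp ExE against 0, 0 and 0.611 CPM in epiblast (7.54 ± 0.70). Wnt7b, a secreted WNT ligand, was at 7.46, 18.6 and 34.4 CPM against 0, 0 and 0.376 CPM (7.41 ± 0.78). Pglyrp1, a peptidoglycan-binding protein, had no reads in any epiblast library of either genotype and was at least 37.3-fold higher in G9a-Glp ExE and at least 77.3-fold higher in wild-type ExE (floor of 3 reads over the group). The count of 18 persisting genes was the same under the replicate block and without each set of doubted libraries.

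Among genes of any kind, those with the largest persisting ExE bias in G9a-Glp included Fgfbp1, a secreted carrier of fibroblast growth factors. Fgfbp1 was at 586, 866 and 1977 CPM in G9a-Glp ExE and 0.428, 4.15 and 10.5 CPM in epiblast, a difference of 7.92 ± 0.48 (SE) where wild type had 7.04 ± 0.43. The connexin Gjb5 was at 7.74 ± 0.42, with 209, 497 and 1061 CPM in G9a-Glp ExE and 1.22, 2.55 and 4.28 CPM in epiblast. Gprc5a, an orphan G-protein-coupled receptor, was at 7.87 ± 0.55 and Wdr72, a vesicle trafficking protein, at 7.64 ± 0.66, both with a median of 0 CPM in epiblast. The noncoding LOC105245869 was at 7.80 ± 0.56. None of these changes from wild type was called.

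The epiblast side was also retained, with more exceptions. Of 22 tested epiblast genes, 16 were lower in ExE in G9a-Glp and 3 higher (27.6% and 24.0% of all genes). Of the 22, 14 persisted, 5 shrank and 1 grew (38.1%, 4.89% and 0.579% of all genes). The fitted median lineage difference was -4.32 in G9a-Glp and -4.58 in wild type. With groups of 0 reads set at a floor of 3 reads over the group, it was -4.32 and -3.65, so the order of the genotypes depended on those groups. Otx2, a homeodomain factor of the epiblast, was at 43.3, 62.3 and 98.7 CPM in G9a-Glp epiblast and 0, 0 and 2.73 CPM in ExE, a difference of -6.84 ± 0.48 (SE), where wild type had -7.09 ± 0.54. Trh, the precursor of thyrotropin-releasing hormone, was at 323, 629 and 832 CPM in G9a-Glp epiblast and 0, 3.53 and 24.1 CPM in ExE (-6.94 ± 0.51). The highest ExE value of Trh was in embryo 8, which also had the highest sum of Nanog, Fgf5, Otx2 and Tdgf1 in G9a-Glp ExE. The level of Trh rose in epiblast against wild type (1.93 log2, edgeR adjusted p = 0.00051), where epiblast was at 78.5, 161 and 199 CPM. Slc35d3, a nucleotide sugar transporter-like protein, was at 4.51, 10.2 and 24.1 CPM in G9a-Glp epiblast and at 0 in 7 of 8 ExE libraries (-6.78 ± 0.56). In wild type it was at least 206-fold higher in epiblast than in ExE.

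Outside the list, several genes had no reads in any of the 8 G9a-Glp ExE libraries. The cytokine gene Il10 was at 15.9, 40.6 and 57.1 CPM in G9a-Glp epiblast and 2.77, 5.48 and 15.5 CPM in wild-type epiblast, so the ranges of the 2 genotypes did not overlap. Il10 was at least 279-fold higher in epiblast than ExE in G9a-Glp and at least 45.5-fold in wild type. Platr10, a noncoding transcript of pluripotent cells, was at least 235-fold higher in G9a-Glp epiblast. Both Il10 and Platr10 rose in epiblast, by 2.37 (edgeR adjusted p = 0.00011) and 3.14 (4.2e-05) log2. The small GTPase Rab38 persisted at -7.02 ± 0.37 (SE), with 88, 120 and 141 CPM in G9a-Glp epiblast and 0, 0.51 and 2.78 CPM in ExE. Hecw1, a ubiquitin ligase, persisted at -6.95 ± 0.61 and rose from 0.363, 1.98 and 9.15 CPM to 19.7, 24.4 and 33.1 CPM in epiblast (edgeR adjusted p = 7e-06).

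**Figure D2:**
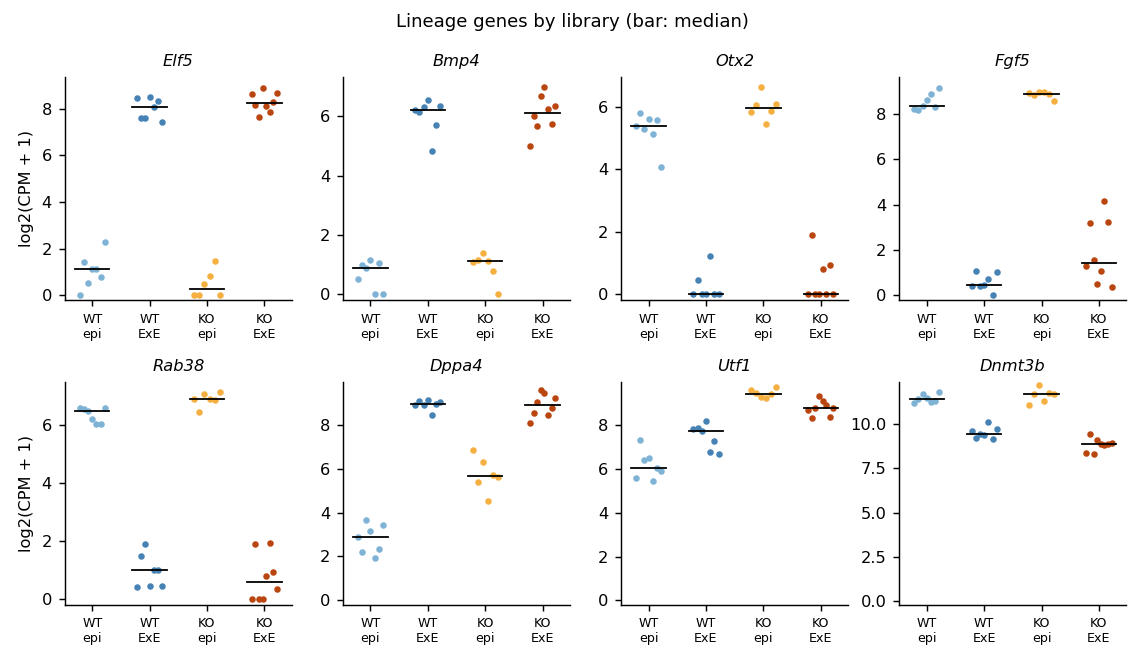
CPM (log scale, as labelled on the axis) of ExE and epiblast identity genes in each library, by group. Points are libraries and bars are medians; the ExE genes separate the tissues without overlap in both genotypes, and so does Otx2.

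The differences that shrank were mostly ExE-biased genes that rose in epiblast. Of the 3091 genes higher in ExE in wild type, 1843 persisted (59.6%) and 313 shrank (10.1%). Of the 3174 genes higher in epiblast, 2171 persisted (68.4%) and 202 shrank (6.36%). G9a-Glp was also compared with wild type within each tissue, where 3540 genes were called in epiblast (33.6%, 19.4% higher and 14.3% lower) and 1557 in ExE (14.8%, 8.39% higher and 6.39% lower). These comparisons share their libraries with the change, so the counts that follow describe it and are no separate evidence. Among the 313 ExE-biased genes that shrank, 296 were higher in G9a-Glp epiblast, 33 of them also higher in ExE, and 24 were lower in ExE. Among the 202 epiblast-biased genes, 133 were lower in G9a-Glp epiblast and 63 higher in G9a-Glp ExE. Without G9a-Glp epiblast embryos 2 and 7 and ExE embryo 8, 134 ExE-biased genes shrank, 124 of them with a rise in epiblast, and 101 epiblast-biased genes shrank. That fit shared 227 of the 515 genes. G9a-Glp ExE embryos 2, 8 and 9 had the highest sums of Nanog, Fgf5, Otx2 and Tdgf1, though not of all 7 epiblast markers. Without these 3 libraries, 175 and 128 genes shrank.

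**Figure D3:**
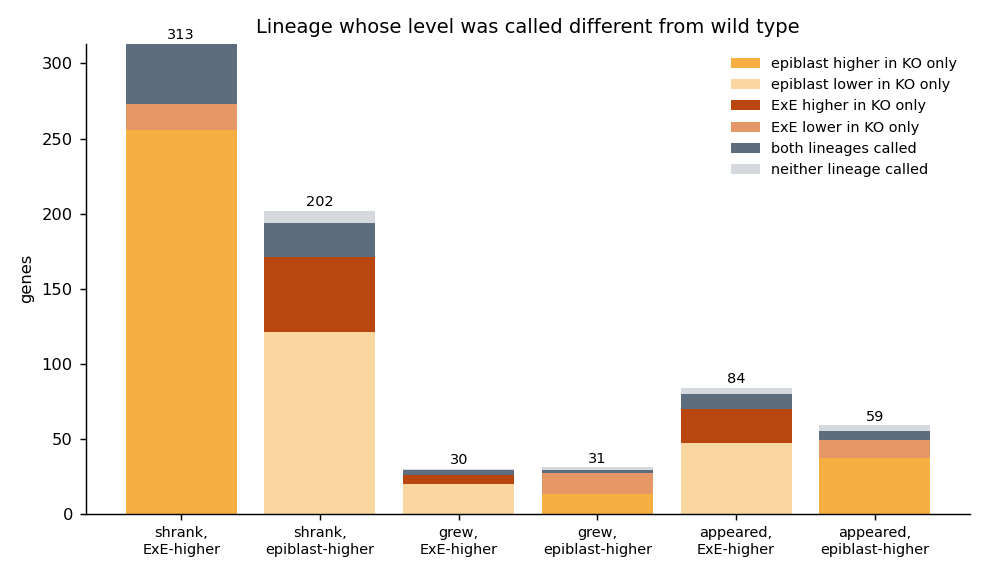
Number of genes that shrank, grew or appeared, by the lineage in which they were higher and by the tissue in which G9a-Glp differed from wild type. Bars are gene counts from 0; the tallest total is that of the 313 ExE-biased genes that shrank, 296 of which were higher in G9a-Glp epiblast.

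A lineage difference was lost at Gm32885, an uncharacterised gene at chr15:97157116-97167278 (mm10), on the same chromosome as the noncanonically imprinted Slc38a4 (chr15:96994822-97055956). Gm32885 was at 28.7, 69.8 and 85.5 CPM in wild-type epiblast and 1904, 2285 and 3841 CPM in wild-type ExE. In G9a-Glp it was at 1723, 2422 and 4042 CPM in epiblast and 2361, 2599 and 4669 CPM in ExE. The G9a-Glp epiblast libraries were all above every wild-type epiblast library and overlapped the ExE of both genotypes. The lineage difference was 5.40 ± 0.30 (SE) in wild type and 0.34 ± 0.25 in G9a-Glp, a change of -5.07 ± 0.37 (edgeR adjusted p = 4.8e-11). Against wild type, Gm32885 rose by 5.32 log2 in epiblast (edgeR adjusted p = 2.2e-14) and was at 0.25 in ExE (0.51).

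Other transcripts followed the same course. 1700029P11Rik, uncharacterised, had 2 reads over the 7 wild-type epiblast libraries (0, 0 and 0.843 CPM) and was at 3.09, 6.34 and 7.53 CPM in wild-type ExE. In G9a-Glp it was at 6.19, 11.5 and 14.3 CPM in epiblast and 8.2, 11.2 and 24.6 CPM in ExE, and its lineage difference went from 5.26 ± 0.55 (SE) to 0.43 ± 0.31 (change -4.83, edgeR adjusted p = 2.9e-05). Platr20, a noncoding transcript of pluripotent cells, was at 0, 0 and 0.762 CPM in wild-type epiblast and 0.611, 2.07 and 3.87 CPM in G9a-Glp epiblast, against 9.5, 12.7 and 20.3 CPM and 12.6, 16 and 23 CPM in ExE (change -3.99 ± 0.67, edgeR adjusted p = 0.00045). In this case the tissues still did not overlap. Tmem109, a membrane protein of the endoplasmic reticulum, rose in epiblast from 0, 0.396 and 1.65 CPM to 3.26, 12.5 and 18.8 CPM (change -3.79 ± 0.89, edgeR adjusted p = 0.0085). LOC108167542 changed by -5.38 ± 0.51 (edgeR adjusted p = 3.4e-08), but it overlaps Gm3134 and the reads of the 2 could not be told apart. Phf11d, 1 of a family of similar genes whose reads may be shared, had no reads in wild-type epiblast and was at least 6.5-fold higher in G9a-Glp epiblast (0, 0.966 and 3.26 CPM). Its change (edgeR adjusted p = 0.031) was not called under the replicate block (0.171).

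The start regions of 4 genes with large changes are shown with their CpG sites, the sites that the DNA methyltransferases recruited by the complex act on. Each sequence runs from 250 bases before to 50 bases after the start in RefSeq (GRCm38.p6, mm10), 5′ to 3′ on the strand of the gene, with CpG dinucleotides in capitals. Gm32885 is at chr15:97167195-97167494 (minus strand), Platr20 at chr11:51220369-51220668 (minus), 1700029P11Rik at chr15:81980290-81980589 (plus) and Wfdc15a, an appearing gene described below, at chr2:164200068-164200367 (minus).
Gm32885: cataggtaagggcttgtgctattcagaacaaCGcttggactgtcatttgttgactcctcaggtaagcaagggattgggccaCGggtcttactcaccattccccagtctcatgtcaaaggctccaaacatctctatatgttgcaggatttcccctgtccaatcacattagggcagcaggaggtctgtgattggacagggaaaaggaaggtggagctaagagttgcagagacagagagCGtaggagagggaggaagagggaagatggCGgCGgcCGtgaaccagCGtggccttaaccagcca
Platr20: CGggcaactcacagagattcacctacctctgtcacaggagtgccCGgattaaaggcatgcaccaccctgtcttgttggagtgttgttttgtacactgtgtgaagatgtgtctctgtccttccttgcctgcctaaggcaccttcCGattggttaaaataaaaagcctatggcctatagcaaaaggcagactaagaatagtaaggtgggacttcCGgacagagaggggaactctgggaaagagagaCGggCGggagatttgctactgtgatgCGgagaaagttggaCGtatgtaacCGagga
1700029P11Rik: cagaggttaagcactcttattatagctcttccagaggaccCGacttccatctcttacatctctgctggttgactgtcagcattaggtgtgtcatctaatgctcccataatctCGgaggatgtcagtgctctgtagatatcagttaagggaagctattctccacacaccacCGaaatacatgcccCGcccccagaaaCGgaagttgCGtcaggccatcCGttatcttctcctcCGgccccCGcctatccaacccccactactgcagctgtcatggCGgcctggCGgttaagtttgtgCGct
Wfdc15a: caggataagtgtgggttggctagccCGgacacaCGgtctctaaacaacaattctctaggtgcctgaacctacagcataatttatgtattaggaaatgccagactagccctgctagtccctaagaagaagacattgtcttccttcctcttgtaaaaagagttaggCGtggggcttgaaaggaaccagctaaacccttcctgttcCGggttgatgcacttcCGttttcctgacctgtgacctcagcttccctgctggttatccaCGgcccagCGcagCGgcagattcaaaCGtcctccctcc

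These windows hold 7 CpG in Gm32885, 9 in Platr20, 12 in 1700029P11Rik and 9 in Wfdc15a. Of the 10532 tested genes, 7898 had such a window, with a median of 21 CpG. As few CpG as in Gm32885 were found in 12.5% of the windows, as few as in Platr20 and Wfdc15a in 16.1%, and as few as in 1700029P11Rik in 22.6%. The 4 genes were picked by their change, so this is a description. By class, the median was 20 CpG over 236 ExE-biased genes that shrank with a rise in epiblast, 20 over 1369 persisting ExE-biased genes, and 14 over 25 genes that appeared with a rise in ExE. The E-box CACGTG, searched on both strands, was in 10.4% of all windows and in 0 of these 4.

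Of the 5 genes of the epiblast list that shrank, Dppa4, Utf1 and Cldn6 were higher in ExE in wild type. Dppa4, a nuclear protein of pluripotent cells, was at 2.77, 6.32 and 11.7 CPM in wild-type epiblast and 349, 499 and 568 CPM in wild-type ExE. In G9a-Glp epiblast it was at 22.4, 50.8 and 115 CPM, above every wild-type epiblast library, and in G9a-Glp ExE at 268, 482 and 763 CPM. Its lineage difference was 6.30 ± 0.36 (SE) in wild type and 3.16 ± 0.31 in G9a-Glp (change -3.14 ± 0.43, edgeR adjusted p = 2.8e-05). Utf1, a chromatin-associated factor of pluripotent cells, rose from 42.7, 65.3 and 158 CPM to 598, 697 and 865 CPM in epiblast and from 103, 215 and 296 CPM to 323, 441 and 642 CPM in ExE, with no overlap between genotypes in either tissue. The difference of Utf1 went from 1.31 ± 0.24 to -0.54 ± 0.24 (change -1.85 ± 0.34, edgeR adjusted p = 0.0011). The tight junction gene Cldn6 went from 1.90 ± 0.18 to 0.73 ± 0.18 (edgeR adjusted p of the change = 0.0041), with 131, 157 and 257 CPM in wild-type epiblast and 395, 495 and 650 CPM in G9a-Glp epiblast.

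The other members of the list that shrank, Fgf5 and Tdgf1, were higher in epiblast in wild type, and their calls were lost in 7 and 15 alternatives. Fgf5, a growth factor of the epiblast, was at 0.275, 1.7 and 17.1 CPM in G9a-Glp ExE and 0, 0.372 and 1.08 CPM in wild-type ExE, with 382, 473 and 499 CPM in G9a-Glp epiblast. The difference of Fgf5 went from -9.28 ± 0.55 (SE) to -6.53 ± 0.42 (change 2.75 ± 0.76, edgeR adjusted p = 0.025), and without G9a-Glp ExE embryos 2, 8 and 9 the adjusted p of the change was 0.589, and under the replicate block 0.131. Tdgf1, a Nodal co-receptor, went from -7.52 ± 0.74 to -4.51 ± 0.62 (edgeR adjusted p = 0.048, 0.312 without those 3 libraries and 0.0609 under the replicate block). It fell in epiblast, from 159, 367 and 1125 CPM to 37.2, 122 and 393 CPM (-1.65, edgeR adjusted p = 0.021). Fgf4, a growth factor that acts on trophoblast stem cells, fell in epiblast from 5.45, 6.6 and 11.4 CPM to 0.774, 1.77 and 3.66 CPM (-1.99, edgeR adjusted p = 0.0033), and the change of its lineage difference (0.027) was 1 under the replicate block. Gm973, uncharacterised, turned: it was at 0, 1.45 and 9.91 CPM in wild-type epiblast and 6.87, 14.3 and 25.2 CPM in G9a-Glp ExE (change 4.97 ± 0.90, edgeR adjusted p = 0.001). Gm32184 and Hc, the gene of complement C5, had no reads in wild-type ExE and, against a floor of 3 reads over that group, were higher in G9a-Glp ExE by at least 92.6-fold and 71.6-fold, at 7.01, 14.2 and 20.5 CPM and 6.6, 9.28 and 18.3 CPM. Their means in wild-type epiblast were only 0.653 and 0.604 CPM, so the wild-type epiblast bias of these genes rested on low levels. The edgeR adjusted p of their changes, 0.0027 and 0.0067, became 1 and 0.116 without wild-type epiblast embryo 8 and G9a-Glp ExE embryo 7.

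Streak and mesoderm genes were mostly on the epiblast side in wild type. Of 11 tested genes, 9 were lower in ExE in wild type, beside 30.1% of all genes, and 5 in G9a-Glp, beside 27.6%. The difference between these counts was not tested. Of the 11, 4 persisted and 3 shrank (38.1% and 4.89% of all genes). The median difference of the list was -4.83 in wild type and -2.08 in G9a-Glp, beside -0.02 and -0.03 over all genes. Mesp1, an early mesoderm factor, was at 1.26, 42.5 and 306 CPM in wild-type epiblast and 0, 1.89 and 36 CPM in G9a-Glp epiblast (-3.34, edgeR adjusted p = 0.0096). The sum of the streak markers was 11.2 to 868 CPM in wild-type epiblast and 3.42 to 167 CPM in G9a-Glp epiblast, ranges that overlap, and in ExE 20.4 to 76.1 CPM and 7.39 to 82.9 CPM. The changes of Mesp1 (edgeR adjusted p = 0.029), Mixl1 (0.048) and Mesp2 (0.046) were lost in 5, 15 and 13 alternatives, with Mesp1 at 0.0562 without wild-type epiblast embryo 8 and G9a-Glp ExE embryo 7, and Mesp2 at 0.263 under the replicate block. None of the 3 was called without ExE embryos 2, 8 and 9 or without the libraries labelled G9a-Glp epiblast 2 and 7 and ExE 8, where 0 of the 11 genes shrank. The signal gene Fgf8 persisted at -4.75 ± 0.76 (SE), with 29.5, 81.3 and 112 CPM in G9a-Glp epiblast and 0, 0.643 and 15.3 CPM in ExE. Asb4 (adjusted p = 0.041) and the ligand gene Fgf3 (0.0225) shrank with lower epiblast levels, and by edgeR neither was called under the replicate block (0.78 and 0.25).

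The differences that grew were few. Among the 30 that were higher in ExE, 23 were lower in G9a-Glp epiblast and 8 higher in ExE. Ceacam10, of a family of similar adhesion genes whose reads may be shared, was at 5.24, 9.34 and 13.8 CPM in wild-type ExE and 21.4, 34.6 and 63.8 CPM in G9a-Glp ExE, and its difference went from 1.12 ± 0.38 (SE) to 5.25 ± 0.47 (change 4.13 ± 0.61, edgeR adjusted p = 9e-05). Ndrg1, a stress and differentiation gene, was at 2.31, 29.4 and 66.3 CPM in wild-type epiblast and 1.71, 4.24 and 6.77 CPM in G9a-Glp epiblast, with 131, 228 and 486 CPM in G9a-Glp ExE (change 3.38 ± 0.62, edgeR adjusted p = 0.0011). Both kept their call in every alternative tried. Cbfa2t3, a transcriptional corepressor, and Fam129a had changes of 3.73 and 2.76 (edgeR adjusted p = 0.023 and 0.024) that were lost under the replicate block (0.147 and 0.0637). Tnnt3 and Myzap, genes of muscle contraction and cell junctions, had no reads in G9a-Glp epiblast, where ExE was at least 99.0-fold and 40.2-fold higher. Their changes (edgeR adjusted p = 0.042 and 0.043) were lost in 15 and 17 alternatives, with 0.134 and 0.209 under the replicate block.

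Among the 31 that were higher in epiblast and grew, 16 were lower in G9a-Glp ExE and 14 higher in epiblast. Crym, a thyroid hormone-binding protein, fell from 0.655, 1.72 and 3.93 CPM in wild-type ExE to 0 in 6 of 8 G9a-Glp ExE libraries, and was at 21.4, 26.6 and 31.5 CPM in G9a-Glp epiblast (change -3.55 ± 0.69, SE, edgeR adjusted p = 0.002). Mogat2, a monoacylglycerol acyltransferase, was at 17.2, 33.5 and 44.9 CPM in wild-type epiblast and 38.7, 100 and 106 CPM in G9a-Glp epiblast (change -2.04 ± 0.43, edgeR adjusted p = 0.0041). Shisa2, a protein that retains WNT and FGF receptors in the endoplasmic reticulum, fell in ExE (-3.13 log2, edgeR adjusted p = 0.00057), and its change (-2.37, 0.035) was lost in 14 alternatives, with 0.169 under the replicate block. Lypd6b and Tbc1d4 changed by -2.37 and -2.04 (edgeR adjusted p = 0.02 and 0.015). Under the replicate block Lypd6b was at 0.0573 and Tbc1d4 at 0.0842.

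Differences appeared in both directions. Of the 84 genes that became higher in ExE, 55 were lower in G9a-Glp epiblast and 33 higher in ExE, and of the 59 that became higher in epiblast, 43 were higher in epiblast and 17 lower in ExE. Without G9a-Glp epiblast embryos 2 and 7 and ExE embryo 8, 39 and 27 appeared, and 56 of the 143 genes were shared. Wfdc15a, a secreted protein with a WAP domain, was near 0 in wild type, at 0, 0.419 and 1.19 CPM in epiblast and 0, 0 and 1.43 CPM in ExE. In G9a-Glp it was at 2.71, 4.58 and 5.56 CPM in epiblast and 30.7, 44.7 and 119 CPM in ExE, so every G9a-Glp library lay above every wild-type one and the tissues separated. Its lineage difference was 3.99 ± 0.41 (SE) in G9a-Glp and -0.94 ± 0.93 in wild type (change 4.94 ± 1.14, edgeR adjusted p = 0.0073).

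Other genes also became higher in ExE. Lhfpl5, a membrane protein known from hair cell channels, was at 0, 0.658 and 1.43 CPM in wild-type ExE and 3.7, 12.7 and 32.1 CPM in G9a-Glp ExE, and its difference was 6.01 ± 0.75 (SE) in G9a-Glp (change 5.88 ± 1.21, edgeR adjusted p = 0.0032). 9530053A07Rik was at 0, 0.655 and 2.63 CPM in wild-type ExE and 14.4, 46.1 and 60.6 CPM in G9a-Glp ExE (change 3.84 ± 0.98, edgeR adjusted p = 0.015). Fosl1, an AP-1 transcription factor, was at 7.24, 10.8 and 28.9 CPM in wild-type ExE and 11.1, 34.5 and 79.2 CPM in G9a-Glp ExE, and fell in epiblast from 10.9, 19 and 35.1 CPM to 3.67, 5.76 and 11.5 CPM (change 3.02 ± 0.53, edgeR adjusted p = 0.0008). Adgrg3, an adhesion receptor, changed by 5.82 (edgeR adjusted p = 0.02), which was 0.137 under the replicate block and 0.85 without wild-type epiblast embryo 8, the library that held its only wild-type epiblast reads, and G9a-Glp ExE embryo 7. Wdr20rt, a retrogene that may share reads with its parent gene, was at least 138-fold higher in G9a-Glp than in wild-type ExE. Its change (edgeR adjusted p = 0.028) was 0.148 without those libraries.

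The genes that became higher in epiblast included Irf1, a transcription factor of the interferon response. Irf1 was at 0, 3.79 and 9.25 CPM in wild-type epiblast and 25.5, 45.1 and 65.4 CPM in G9a-Glp epiblast, without overlap, and its difference was -1.76 ± 0.38 (SE) in G9a-Glp and 0.80 ± 0.44 in wild type (change -2.56 ± 0.58, edgeR adjusted p = 0.0066). Nat6, an acetyltransferase of actin, rose from 0, 0.363 and 1.65 CPM to 11.4, 19.5 and 23.9 CPM in epiblast (change -2.99 ± 0.75, edgeR adjusted p = 0.013). Aig1 and Atp10a, a lipid hydrolase and a lipid flippase, were lower in G9a-Glp ExE and higher in G9a-Glp epiblast, with changes of -2.27 ± 0.38 (edgeR adjusted p = 0.00047) and -2.56 ± 0.44 (0.00064). Gm41254 changed by -2.24 ± 0.49 (edgeR adjusted p = 0.0051). Mfng, a Notch glycosyltransferase, changed by -2.59 (edgeR adjusted p = 0.023), and its change was at 0.115 under the replicate block.

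**Figure D4:**
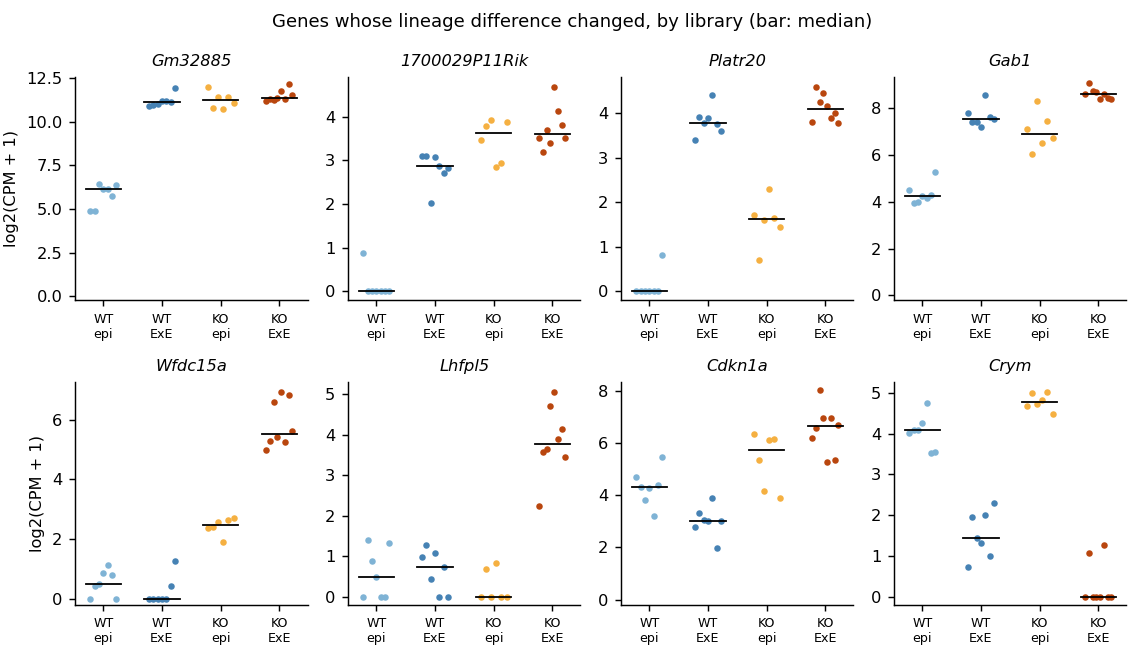
CPM (log scale, as labelled on the axis) in each library of genes whose lineage difference changed, by group. Points are libraries and bars are medians; Gm32885 lies between 1723 and 4042 CPM in the G9a-Glp epiblast libraries, above the 28.7 to 85.5 CPM of wild-type epiblast, and Wfdc15a is highest in the G9a-Glp ExE.

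The signalling list held ligands, receptors, antagonists and mediators. Of 30 tested genes of the Nodal, BMP, FGF and WNT pathways, 7 were higher in ExE in G9a-Glp and 17 lower (24.0% and 27.6% of all genes). Of the 30, 19 persisted and 3 shrank (38.1% and 4.89% of all genes). The median difference was -1.24 in G9a-Glp and -1.55 in wild type. The 3 that shrank were Tdgf1, Fgf4 and Fgf5, and without G9a-Glp ExE embryos 2, 8 and 9 none of the 30 shrank by the edgeR test. Bmp4, the ligand by which the ExE patterns the epiblast, was at 31, 69.2 and 125 CPM in G9a-Glp ExE and 0, 1.14 and 1.63 CPM in epiblast, a difference of 6.25 ± 0.42 (SE) where wild type had 6.53 ± 0.42. Bmp8b, a second BMP ligand, was at 6.41 ± 0.26, and Pcsk6, a protease that matures Nodal, at 5.33 ± 0.76. On the epiblast side, the Nodal antagonists Lefty1 and Lefty2 were at -6.08 ± 0.85 and -5.61 ± 1.10, and Lef1, a mediator of WNT signals, at -5.21 ± 0.45. Lefty2 was lower in G9a-Glp epiblast than in wild type (-2.58, edgeR adjusted p = 0.0058).

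Chromatin genes other than the targets were mostly higher in epiblast in both genotypes. Of 21 tested H3K9 methylation genes, 1 was higher in ExE in G9a-Glp and 14 lower (24.0% and 27.6% of all genes). Of the 21, 13 persisted and 1 shrank (38.1% and 4.89% of all genes), with a median of -0.58 in G9a-Glp and -0.78 in wild type. Atf7ip, a partner of SETDB1, was at -1.51 ± 0.22 (SE), the corepressor Trim28 at -1.46 ± 0.18, the reader Cdyl at -1.26 ± 0.25 and the HP1 protein Cbx1 at -1.21 ± 0.17. The exception was Max, the MYC partner found in a G9a-containing complex, which rose in epiblast from 3.81, 7.99 and 11.9 CPM to 25.7, 39.6 and 51.9 CPM without overlap (2.07, edgeR adjusted p = 6.6e-06). The change of Max (-1.34, edgeR adjusted p = 0.041) was lost in 12 alternatives. Setdb2 was the 1 gene called higher in ExE (0.68 ± 0.24), and under the replicate block its edgeR adjusted p was 0.167.

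Among 13 DNA methylation enzymes, 2 were higher in ExE in G9a-Glp and 7 lower (24.0% and 27.6% of all genes). Of the 13, 5 persisted, 2 shrank and 1 grew (38.1%, 4.89% and 0.579% of all genes). The median was -0.46 in G9a-Glp and -0.53 in wild type. Dnmt3l, the cofactor of the de novo methyltransferases, was at 2.64, 4.64 and 24.4 CPM in wild-type epiblast and 10.8, 19.7 and 31.1 CPM in G9a-Glp epiblast, and at 63.2, 82.6 and 171 CPM and 50, 63.3 and 85.8 CPM in ExE. The difference of Dnmt3l went from 3.72 ± 0.32 (SE) to 1.79 ± 0.30 (change -1.94 ± 0.42, edgeR adjusted p = 0.0051) and the call was kept in every alternative. Dnmt3b, the main de novo methyltransferase of the epiblast, was at 312, 466 and 687 CPM in G9a-Glp ExE and 576, 696 and 1093 CPM in wild-type ExE (-0.74, edgeR adjusted p = 0.0018). The difference of Dnmt3b went from -1.86 ± 0.17 to -2.67 ± 0.17 (edgeR adjusted p = 0.031, and 0.101 under the replicate block). Dnmt3a went the other way in ExE, from 3.58, 7.67 and 10.3 CPM to 9.07, 12 and 20.6 CPM (0.82, edgeR adjusted p = 0.013), but its change (0.98, 0.044) was lost in 16 alternatives, with 0.0842 under the replicate block. The dioxygenase gene Tet1 persisted at -1.97 ± 0.15.

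Among targets of p53 and cell-cycle inhibitors, a change of the lineage difference was called towards the ExE for 5 of 21 tested genes (3.00% of all genes). It was called towards the epiblast for 1 (3.83% of all genes), and for the other 15 none was called. In G9a-Glp 11 were higher in ExE and 2 lower (24.0% and 27.6% of all genes), and in wild type 8 and 5 (29.3% and 30.1%), with a median of 1.19 in G9a-Glp and 0.48 in wild type, beside all-gene medians of -0.03 and -0.02. Cdkn1a, the p21 inhibitor, was at 2.96, 7.15 and 14 CPM in wild-type ExE and 37.7, 98.4 and 262 CPM in G9a-Glp ExE, without overlap (3.75, edgeR adjusted p = 1.3e-07). In epiblast Cdkn1a went from 8.31, 19.2 and 43.4 CPM to 13.7, 54.1 and 80.5 CPM (1.16, edgeR adjusted p = 0.029). The lineage difference of Cdkn1a turned from -1.37 ± 0.44 (SE) to 1.22 ± 0.39 (change 2.59 ± 0.59, edgeR adjusted p = 0.0066). Btg2, an antiproliferative gene, appeared as a difference at 1.32 ± 0.24, with 12.8, 22.5 and 26.8 CPM in wild-type ExE and 42.5, 63.3 and 132 CPM in G9a-Glp ExE (change 1.42, edgeR adjusted p = 0.01).

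Ccng1 and the DNA polymerase gene Polk also appeared, at 1.38 ± 0.22 (SE) and 1.37 ± 0.25 (edgeR adjusted p of the change = 0.018 and 0.024). Without the libraries labelled G9a-Glp epiblast 2 and 7 and ExE 8, the changes of Ccng1 and Polk were at 0.0699 and 0.0862. Cdkn1c, the p57 inhibitor of trophoblast, rose in ExE from 29.5, 35 and 65 CPM to 34.3, 90.1 and 165 CPM (1.18, edgeR adjusted p = 0.0028) and persisted at 3.52 ± 0.33. Dcxr rose in both tissues, by 2.19 in ExE (edgeR adjusted p = 1e-06) and 1.09 in epiblast (0.014). The death effector Bax rose more in epiblast, from 63.3, 118 and 244 CPM to 422, 467 and 589 CPM (1.73, edgeR adjusted p = 2e-07), and its lineage difference was lost (change -0.99, edgeR adjusted p = 0.026, and between 0.0603 and 0.0985 in the 4 alternatives where the call was lost). Trophoblast differentiation genes were 9 of 11 higher in ExE in G9a-Glp and 8 of 11 in wild type, beside 24.0% and 29.3% of all genes. Among them Slc2a3, a glucose transporter, fell in ExE from 213, 276 and 361 CPM to 75.1, 101 and 150 CPM (-1.42, edgeR adjusted p = 1.1e-07).

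Germline genes, a class that G9a-Glp represses in embryonic stem cells, were split in direction in the lineage contrast. Of 24 tested, 12 were higher in ExE in G9a-Glp and 6 lower, beside 24.0% and 27.6% of all genes. In wild type 10 were higher and 5 lower, beside 29.3% and 30.1%. The median was 0.48 in G9a-Glp and 0.16 in wild type. Asz1, a protein of the piRNA pathway, rose in both tissues and kept its ExE bias. It was at 0, 0.33 and 1.09 CPM in wild-type epiblast and 17.1, 23.7 and 28.2 CPM in G9a-Glp epiblast, and at 0.333, 2.63 and 5.24 CPM and 180, 225 and 308 CPM in ExE, without overlap between genotypes. The rise of Asz1 was 6.28 log2 in ExE (edgeR adjusted p = 3.3e-16) and 5.73 in epiblast (2.4e-11), and the lineage difference was 3.42 ± 0.26 (SE) in G9a-Glp and 2.87 ± 0.54 in wild type. Tex101 rose in ExE (1.74, edgeR adjusted p = 0.0012) from 1.67, 3.62 and 11.9 to 9.9, 18.2 and 26.1 CPM. Sycp2, of the synaptonemal complex, rose in epiblast, from 0, 0.422 and 1.98 CPM to 5.8, 9.68 and 15.7 CPM (3.65, edgeR adjusted p = 5.6e-05). Sycp3 of the same complex fell in epiblast from 38.9, 58.1 and 121 CPM to 25, 28.1 and 36.8 CPM (-1.47, edgeR adjusted p = 0.001), and its shrinkage (0.0066) was at 0.123 under the replicate block.

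Interferon response genes were 3 higher and 7 lower in ExE of 12 tested in G9a-Glp (24.0% and 27.6% of all genes). In wild type 4 were higher and 7 lower (29.3% and 30.1%), and the medians were -1.52 in G9a-Glp and -1.78 in wild type. Oas1a, an antiviral synthetase with similar copies that may share reads, rose in epiblast from 0.839, 2.18 and 6.27 CPM to 11.4, 15.6 and 19.5 CPM without overlap (2.45, edgeR adjusted p = 4.4e-05). The lineage difference of Oas1a went from 3.30 ± 0.41 (SE) to 1.38 ± 0.35 (edgeR adjusted p of the change = 0.024, and 0.063 to 0.0753 in the 4 alternatives where the call was lost). Visceral endoderm markers were lower in ExE for 7 of 9 tested in both genotypes, beside 27.6% of all genes in G9a-Glp and 30.1% in wild type. Wild-type epiblast embryo 8 and G9a-Glp epiblast embryos 2, 3 and 5 had the highest sums of these markers in their groups. Without these libraries, 3 of 8 tested were lower in ExE in G9a-Glp and 2 higher. With all libraries, 1 of the 9 genes shrank (4.89% of all genes). This was Afp, at 12.9, 40.2 and 112 CPM in G9a-Glp ExE and 0.333, 1.08 and 6.79 CPM in wild-type ExE, while in G9a-Glp ExE the endoderm marker Amn was at 4.8, 13.4 and 24.3 CPM and the 8 markers other than Afp and Amn summed to 0.607 to 8.11 CPM. The change of Afp (edgeR adjusted p = 0.042) was at 0.323 without wild-type epiblast embryo 8, the library with 268 CPM, and G9a-Glp ExE embryo 7. Of 2 tested blood and decidua genes, Dcn and Cd34, both were lower in ExE and persisted.

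The noncanonical list was drawn up with results of these data known, so its counts are no independent evidence of its direction. All 7 tested noncanonically imprinted genes were higher in ExE in wild type, 6 were in G9a-Glp, and 3 shrank (29.3%, 24.0% and 4.89% of all genes). The median lineage difference of the list was 3.45 in wild type and 1.53 in G9a-Glp, beside -0.02 and -0.03 over all genes. The 3 that shrank were Gm32885, Platr20 and Gab1, and the same number shrank without each set of doubted libraries. Gab1, an adaptor of receptor tyrosine kinases needed for the placenta, was at 14.5, 17.8 and 37.4 CPM in wild-type epiblast and 65.4, 121 and 316 CPM in G9a-Glp epiblast, and at 146, 184 and 380 CPM and 334, 394 and 541 CPM in ExE. The epiblast ranges of Gab1 did not overlap, and its difference went from 3.45 ± 0.27 (SE) to 1.52 ± 0.25 (change -1.93 ± 0.35, edgeR adjusted p = 0.001). Sfmbt2, a Polycomb-group gene of trophoblast, rose in ExE from 360, 401 and 618 CPM to 677, 953 and 1338 CPM without overlap (1.07, edgeR adjusted p = 0.0022) and in epiblast (1.32, 0.004), so its difference persisted at 6.36 ± 0.33. Slc38a4, an amino acid transporter, rose by 1.00 in ExE (edgeR adjusted p = 1.1e-05) and 0.94 in epiblast (3.6e-05), and persisted at 2.03 ± 0.16. Jade1, a subunit of a histone acetyltransferase complex, persisted at 1.53 ± 0.23 and rose in ExE (0.69, edgeR adjusted p = 0.024).

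Of 35 tested canonically imprinted genes, 9 were higher in ExE in G9a-Glp and 13 lower, beside 24.0% and 27.6% of all genes. Of the 35, 18 persisted, beside 38.1% of all genes. The single genes that shrank, grew and appeared stand beside 4.89%, 0.579% and 1.36% of all genes. The medians were -0.41 in G9a-Glp and -0.05 in wild type. H19, a maternally expressed noncoding RNA, was at 1087, 1401 and 1975 CPM in G9a-Glp ExE and 30.8, 52 and 81.2 CPM in epiblast, and persisted at 4.91 ± 0.30 (SE). Peg10, a retrotransposon-derived placental gene, persisted at 6.02 ± 0.50, and Magel2 at -7.00 ± 0.58. Zdbf2, a paternally expressed gene, shrank from -4.35 ± 0.35 to -2.43 ± 0.32 (edgeR adjusted p = 0.013) with a fall in epiblast from 19.7, 30.3 and 44.2 CPM to 11.2, 15.2 and 21.2 CPM. Phlda2, a placental growth restrictor, grew from 3.67 ± 0.51 to 6.36 ± 0.63 (edgeR adjusted p = 0.017) with a fall in epiblast from 23.4, 80 and 209 CPM to 4.7, 15.5 and 39.9 CPM, and was between 0.0541 and 0.0935 in the 4 alternatives that lost it. Mest became higher in epiblast with a fall in ExE (change -1.16, edgeR adjusted p = 0.038), a call lost in 13 alternatives, with 0.195 under the replicate block.

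The allele counts show which parental allele carried these levels. With a single direction of the cross, the maternal allele is always the BDF1 one, so parent and strain cannot be told apart here, and the rounding of the deposited ratio leaves shares of the deepest genes known to about 1 percentage point. The maternal share was compared between tissues in 7709 genes. It differed in 414 genes in G9a-Glp (5.37%; more maternal in ExE in 2.62%) and 515 in wild type (6.68%; more maternal in 3.06%), and the change was called for 24 genes (0.311%), 19 towards the maternal allele in ExE (0.246%) and 5 away from it (0.0649%). Of 6 tested noncanonically imprinted genes, 5 were more paternal in ExE than epiblast in wild type, and in G9a-Glp 0 were more paternal and 1 more maternal. The change was called for 5 of the 6, all towards the maternal allele, with a median log2 change of 3.79 beside 0.00 over all genes. This list was drawn up with results of these data known, so its allelic counts and median are no independent evidence either. Of 27 canonically imprinted genes, 1 changed.

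Sfmbt2 read almost wholly from the paternal allele in wild-type ExE, with a maternal share of 0, 0 and 0.199%. In G9a-Glp ExE the share was 28.1, 43.5 and 51.8% on 1832 to 3245 reads per library, and the groups did not overlap. In epiblast it was 30.8, 53.9 and 93.3% in wild type and 21.7, 36.4 and 80.8% in G9a-Glp, on 12 to 60 reads in 5 libraries of each. The change was 11.28 ± 1.08 (SE) in log2 of maternal over paternal reads (edgeR adjusted p = 5.9e-09). Jade1 had a maternal share of 3.66, 5.23 and 8.75% in wild-type ExE and 42.6, 45.8 and 52.8% in G9a-Glp ExE, beside 31.4, 47.9 and 58.1% and 41.2, 48.2 and 51.4% in epiblast (change 3.98 ± 0.28, edgeR adjusted p = 1.7e-12). In the G9a-Glp embryos the tissues of Jade1 overlapped. Gab1 was at 2.04, 4.78 and 10.9% in wild-type ExE and 50.6, 56.4 and 62% in G9a-Glp ExE (change 3.60 ± 0.36, edgeR adjusted p = 1.8e-08). Smoc1, a secreted matrix protein, was at 0, 2.33 and 5.26% and 44.8, 53.9 and 66.1% in ExE, with 8.33, 58.3 and 65.6% in the 3 wild-type epiblast libraries of at least 10 reads (change 5.22 ± 0.82, edgeR adjusted p = 0.00027, limma adjusted p = 0.103).

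In 2 genes of this kind the epiblast was paternal as well. The maternal share of Gm32885 was 3.33, 7.84 and 10.4% in wild-type epiblast and 1.99, 2.0 and 7.0% in wild-type ExE. In G9a-Glp it was 17, 27.3 and 35.6% in epiblast and 39.1, 41.6 and 45.3% in ExE, above every wild-type library in both tissues, and the tissues did not overlap (change 2.54 ± 0.53, SE, edgeR adjusted p = 0.012, and 0.0694 without wild-type epiblast embryo 8 and G9a-Glp ExE embryo 7). The maternal share of Slc38a4 was 0.274, 0.735 and 6.33% in wild-type epiblast, 0, 0.56 and 0.978% in wild-type ExE, 14.6, 33 and 37.2% in G9a-Glp epiblast and 3.01, 34.1 and 41.9% in G9a-Glp ExE. The low value of 3.01% belonged to ExE embryo 3. Within each tissue, every G9a-Glp library lay above every wild-type one, and the tissues overlapped in both genotypes. No lineage difference of the share was called in Slc38a4, nor a change (edgeR adjusted p = 0.85).

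**Figure D5:**
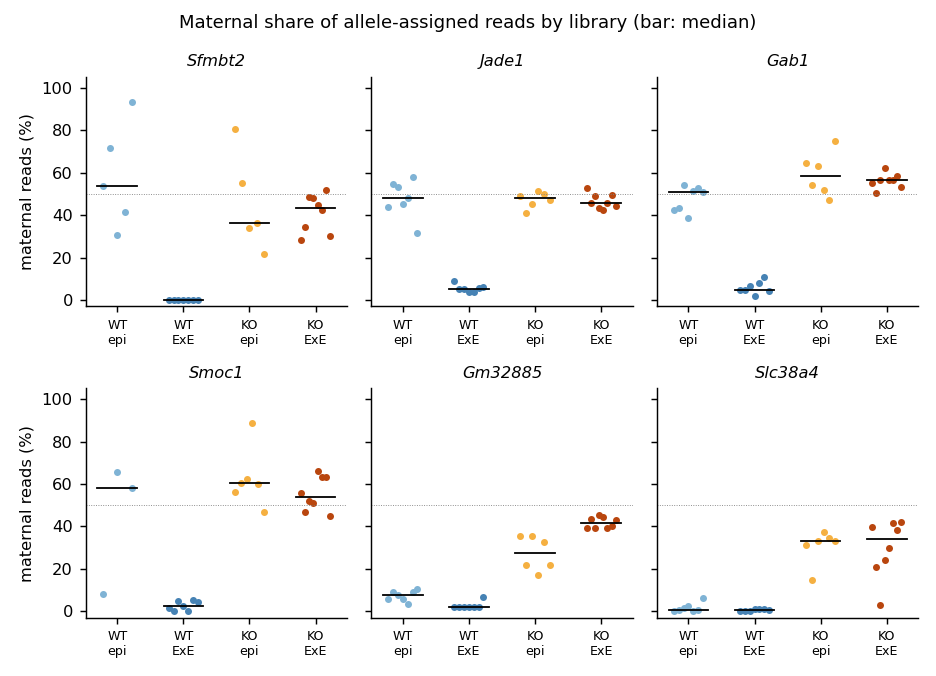
Maternal (BDF1) share of informative reads, in percent, for noncanonically imprinted genes in each library with at least 10 reads, by group. Points are libraries and the dotted line marks 50%; the wild-type ExE lies near 0% and the G9a-Glp ExE between 28.1 and 66.1% for Sfmbt2, Jade1, Gab1 and Smoc1.

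Of the other allelic changes, the maternal share of 2400006E01Rik in ExE went from 0.962, 1.98 and 3.85% to 16.5, 29.9 and 46.6% (change 3.46 ± 0.46, SE, edgeR adjusted p = 9.1e-06), and in epiblast from 6.9, 13 and 15.3% to 13.1, 18.7 and 26.2%. Ascl2, a maternally expressed trophoblast factor, was at 97.6, 100 and 100% in wild-type ExE and 85, 95 and 98.4% in G9a-Glp ExE (change -4.27, edgeR adjusted p = 0.017, limma adjusted p = 0.108). Kifc1 changed by 3.22 (edgeR adjusted p = 0.021, and 0.168 with the replicate block). Rinl changed by -5.49 (edgeR adjusted p = 0.014) on 3 wild-type epiblast libraries of 13 reads each and 3 G9a-Glp ones of 15 to 28 reads, all at 100%.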

How the data were processed

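The deposited table gives, for each library and gene, the number of reads over polymorphisms between BDF1 and CAST, per the file headers and the note deposited with them. These counts were deposited unnormalized by the authors, with NA where a gene had no read, taken here as 0. The authors also deposited an allelic ratio (the CAST share minus a constant, rounded) and an allelic score, a signed log10 of a binomial p-value. STAR 2.5.0 and HTSeq are named in the submitters' processing notes, with mm10 as the build. The bisulfite library was not analysed here.

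Of 30546 genes, 29557 were autosomal and 10532 passed the filter on low counts. Counts were scaled by TMM and fitted in edgeR 4.0.16 (R 4.3.3) with 4 group means, which share 1 estimate of spread. A change was tested as the interaction. Maternal and paternal reads were recovered from the ratio and the score, which matched in 250383 of 250917 values within 0.002, and fitted in edgeR for genes that reached 10 reads in 3 or more libraries per group. Scripts were tested on simulated data. Libraries of a group come from separate embryos. Embryo numbers pair the tissues, since the labels give both tissues of a pair the same embryo, and deviations of paired tissues correlated at -0.0227 to 0.128 in G9a-Glp and 0.0278 to 0.321 in wild type. The groups, gene lists and classes were chosen with earlier results of these data known. Named genes were the targets, up to 4 genes of each list and direction, and up to 6 of each class and direction with the largest difference or change at a mean of at least 20 CPM and without overlap (persisting) or at least 10 CPM (others), and for alleles up to 8 genes and the imprinted genes called. Some genes that the rule names are not reported here. Alternatives used DESeq2 1.42.0, limma 3.58.1, other scaling, no filter, sex as a covariate, a replicate block and left-out libraries.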

Additional observations from a re-analysis of the deposited data

Results flagged for a closer look

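In each of 184 groups of values the most extreme library was compared with the rest by Dixon's test. For normally distributed values, chance passes this test in about 1 in 20 groups. The CPM values were not log-transformed, so that rate may not hold here, and 27 values passed. Wild-type epiblast embryo 8 stood apart in its total of 1311863 reads, in its 19951 detected genes, and in its CPM of Afp (268), Atp10a (22.9), Cbfa2t3 (11.4), Ceacam10 (14.5), Dnmt3l (24.4), Gab1 (37.4), Gm41254 (14.5) and Mesp1 (306). Wild-type epiblast embryo 2 stood apart in Il10 (15.5 CPM) and Utf1 (158 CPM). In wild-type ExE, embryo 6 stood apart in Dnmt3l (171 CPM), Dppa4 (349 CPM), Gab1 (380 CPM) and Platr20 (20.3 CPM), and embryo 8 in Gm32885 (3841 CPM). In G9a-Glp ExE, embryo 7 stood apart in its 17854 detected genes and in Asz1 (308 CPM), embryo 3 in Btg2 (132 CPM) and Cdkn1a (262 CPM), embryo 2 in Gab1 (541 CPM), and embryo 8 in Mesp1 (14.4 CPM) and Trh (24.1 CPM). In G9a-Glp epiblast, embryo 2 stood apart in Mesp1 (36.0 CPM) and Slc38a4 (209 CPM) and embryo 3 in Mogat2 (38.7 CPM).

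The lineage difference itself differed between the genotypes, by edgeR's test of the change, in the following named genes. Among differences that were higher in ExE and shrank, the log2 change was -5.38 in LOC108167542, -5.07 in Gm32885, -4.83 in 1700029P11Rik, -3.99 in Platr20 and -3.79 in Tmem109, with an adjusted p of 0.031 for Phf11d. Among those that grew, it was 4.13 in Ceacam10, 3.73 in Cbfa2t3, 3.38 in Ndrg1 and 2.76 in Fam129a, with adjusted p of 0.0418 for Tnnt3 and 0.0428 for Myzap. Among those that appeared, it was 5.88 in Lhfpl5, 5.82 in Adgrg3, 4.94 in Wfdc15a, 3.84 in 9530053A07Rik and 3.02 in Fosl1, with an adjusted p of 0.0282 for Wdr20rt. Of the differences higher in epiblast that shrank, it was 7.86 in Mesp1, 5.03 in Asb4 and 4.97 in Gm973, with adjusted p of 0.0027 for Gm32184, 0.0225 for Fgf3 and 0.00674 for Hc. It was -3.55 in Crym, -2.37 in Shisa2, -2.37 in Lypd6b, -2.04 in Mogat2 and -2.04 in Tbc1d4 among those that grew. Among those that appeared, it was -2.99 in Nat6, -2.59 in Mfng, -2.56 in Irf1, -2.56 in Atp10a, -2.27 in Aig1 and -2.24 in Gm41254.

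The allelic lineage difference changed by 11.28 in Sfmbt2, -5.49 in Rinl, 5.22 in Smoc1, -4.27 in Ascl2, 3.98 in Jade1, 3.60 in Gab1, 3.46 in 2400006E01Rik, 3.22 in Kifc1 and 2.54 in Gm32885, in log2 of maternal over paternal reads.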

How the results depend on the processing

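Of 158 named results, 114 kept their call in every alternative and 44 lost it in at least 1, and 0 reversed. Without a filter on low counts, 9491 genes were called in wild type and 790 shrank. DESeq2 called 1119 changes, and 117 genes grew and 231 appeared. With only embryos that gave both tissues there were 364 changes, 250 genes shrank and 66 appeared. Without G9a-Glp epiblast embryos 2 and 7 and ExE embryo 8 there were 335 changes, and 235 shrank, 34 grew and 66 appeared. Alternatives chosen after seeing the data moved fewer counts: 95 genes grew without wild-type epiblast embryo 8 and G9a-Glp ExE embryo 7, 303 shrank without G9a-Glp ExE embryos 2, 8 and 9, and 91 appeared without wild-type epiblast embryo 8 and G9a-Glp epiblast embryos 2, 3 and 5. An absolute log2 difference of at least 1 left 3390 calls in G9a-Glp, 3993 in wild type, 751 within ExE and 1838 within epiblast, with 2517 persisting, 333 shrinking and 37 growing. The causes of these shifts in the counts were not tested. With the replicate block, 4835 genes were called in G9a-Glp and 6388 in wild type, 582 changed, 3817 persisted, 425 shrank, 60 grew and 97 appeared, and for alleles 319, 582 and 20 genes were called in G9a-Glp, wild type and the change. The block ended 24 named calls, 22 of them given beside their genes and 2 in the G9a-Glp lineage difference, Sesn1 (adjusted p = 0.0683) and Kdr (0.0552). Library totals in place of TMM lowered the share of higher calls from 46.5 to 39.4% in G9a-Glp and from 43.9 to 34.5% for the change, as the median G9a-Glp difference went from -0.03 to -0.14. Depth limits genes with few reads over polymorphisms, such as Ehmt2 in epiblast, and epiblast allele shares of Sfmbt2 and Smoc1.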
